A study of Mus musculus with 2 samples.

Results

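The heat shock proteins and the other chaperones of the kidney were examined in whole-kidney messenger RNA from wild-type (WT) mice and from mice carrying an *Inmt* transgene (TG) after acute kidney injury (AKI). Members were taken by gene symbol: the *Hspa*, *Hspb*, *Hspd*, *Hspe*, *Hsph* and *Hsp90a* genes, the *Dnaja*, *Dnajb* and *Dnajc* genes, the *Bag* and *Cct* genes, and *Hsf1*, *Hsf2*, *Tcp1*, *Stip1*, *Ahsa1* and *Chordc1*, without *Hspa5*. The table held 85 such genes among 19829. The name rule also took in chaperones of mitochondria and of the endoplasmic reticulum (ER), 2 pseudogenes (*Hspd1-ps3* and *Hspe1-ps6*) and *Hspb11*, which encodes the intraflagellar transport protein IFT25, so the set is wider than the cytosol.

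The libraries are called WT+AKI and TG+AKI here, 1 library per group. Both were made from mice given voclosporin, a calcineurin inhibitor, by injection at a daily dose of 30 mg/kg over 2 weeks, starting at 8 weeks of age and ending at 10. At 14 weeks both groups then underwent ischemia of both kidneys for 30 min and reperfusion. The titles of the study's own gene lists for this comparison call the injury voclosporin-induced and do not name ischemia. The time from reperfusion to sampling is given as 24 h in one place and as 48 h in another. The mice are described as C57BL/6, TG mice overexpress *Inmt*, an N-methyltransferase gene, in proximal tubules, and the controls were littermates. Mice put through ischemia are described as male, and the RNA as extracted from left kidney tissue. The promoter that drives the transgene and the number of animals behind each library are not given in the sources used here. The sample title of TG+AKI also contains the words conditional knockout, and the treatment field of both samples lists no treatment. *Inmt* itself had a value of 10.4 in WT+AKI against 402.8 in TG+AKI, a ratio of 38.5 (95% interval 35.1 to 42.5). The higher value is in the library labelled TG.

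Chaperones bind unfolded or partly folded proteins and give them another chance to reach their native shape. HSP70 proteins do this in cycles of ATP hydrolysis that J proteins start and that BAG and HSP110 proteins end by exchanging the nucleotide, and HSP90 then finishes many signaling proteins with the help of cofactors. Small heat shock proteins hold unfolded chains without ATP, the ring-shaped TRiC complex folds actin and tubulin, and *Hspd1* with *Hspe1* forms the matching ring of the mitochondrion. Under heat or oxidative stress the heat shock factor HSF1 binds repeated GAA units, the heat shock element, and induces part of these genes. In the kidney, the inducible HSP70 and the small protein encoded by *Hspb1* are known as responders to ischemia.

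Promoter sequences were available for 67 of the 85 members (RefSeq, assembly GRCm38.p6, 250 bases before to 50 bases after the annotated start). They were searched for 3 alternating units of the element, each separated by 2 bases, GAANNTTCNNGAA or TTCNNGAANNTTC, which are reverse complements of each other and so cover both strands. Matches may overlap. The letters occurred in 5 of the 67 members (7.46%), against 0.561% of the 13714 genes of the table with a promoter entry and 0.603% of all 32851 windows. They are printed below because they are the feature by which heat shock genes are usually recognised, and capitals mark the units.

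*Chordc1*, chr9:18292260-18292289, plus strand: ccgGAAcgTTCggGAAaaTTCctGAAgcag
*Hspd1*, chr1:55088053-55088082, minus strand: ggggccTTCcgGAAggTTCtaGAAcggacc
*Hspe1*, chr1:55088053-55088082, plus strand: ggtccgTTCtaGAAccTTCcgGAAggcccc
*Hsph1*, chr5:149636279-149636308, minus strand: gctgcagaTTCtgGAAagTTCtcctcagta
*Dnajb6*, chr5:29735844-29735873, plus strand: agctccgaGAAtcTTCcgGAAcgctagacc

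The *Chordc1* run held 5 units across the start itself, from base -4 to base 19. *Hspd1* and *Hspe1* lie head to head, and their annotated genes overlap by 96 bases. The same 4 units stand in both windows, at -144 to -127 for *Hspd1* and at -89 to -72 for *Hspe1*. The *Hspd1* start used here is not the outer end of its annotated gene, which reaches to base 55088243. The 4 units therefore lie before that start but inside the annotated *Hspd1* gene. In *Hsph1* the units lie after the start, at bases 16 to 28, or at 37 to 49 from a second annotated start, and in *Dnajb6* at -127 to -115, or at -46 to -34 from a second annotated start. The stress-inducible genes *Hspb1*, *Hspa1a* and *Hspa1b* had no run of 3 exact units in their windows, which says only that these letters are not there. They held runs of 2 units, GAANNTTC or TTCNNGAA, as did 19 of the 67 members (28.4%) against 14.7% of the genes of the table. These sequences are shown because the genes are compared below.

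*Hspb1*, chr5:135887791-135887820, plus strand: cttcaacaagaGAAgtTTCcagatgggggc
*Hspb1*, chr5:135887811-135887840, plus strand: agatgggggcaGAAccTTCctggccccgcc
*Hspa1a*, chr17:34972242-34972271, minus strand: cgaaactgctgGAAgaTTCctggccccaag
*Hspa1b*, chr17:34959324-34959353, minus strand: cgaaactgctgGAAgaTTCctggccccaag

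The windows of *Hspa1a* and *Hspa1b* were identical over these 30 bases. Both genes lie on chromosome 17, 10120 bases apart, and *Hspa1l* starts 546 bases beyond *Hspa1a*.

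**Figure D1:**
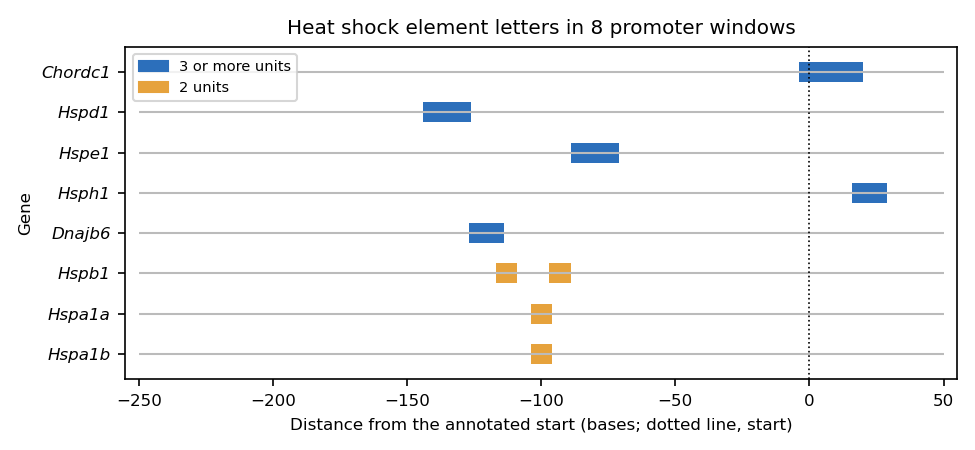
Positions of heat shock element letters in 8 promoter windows. The horizontal axis gives the distance from the annotated start in bases, blue boxes mark runs of 3 or more units and orange boxes runs of 2. *Chordc1* and *Hsph1* have theirs at or after the start, and *Hspb1*, *Hspa1a* and *Hspa1b* have 2-unit runs about 100 bases before it.

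The WT+AKI library held 38542764 reads assigned to genes and the TG+AKI library 36427421. Values are CPM of a library size that the authors had scaled between the samples, and 1 read stands for 0.0236 in WT+AKI against 0.0302 in TG+AKI. Brackets after a ratio of TG+AKI over WT+AKI give a 95% Clopper-Pearson interval from the reads. With 1 library per group no difference has a replicate check, and reads without molecular identifiers are not independent molecules, so the intervals cover counting error only. Kidney markers were present in both libraries, among them *Lrp2*, *Umod*, *Aqp2* and *Nphs1*, and several marker lists differed widely. The 4 proximal tubule markers were all higher in TG+AKI (summed value 1908 against 9659), the 3 injured tubule markers (*Havcr1*, *Lcn2*, *Krt20*) all lower (1818 against 5.01), and 3 of 4 macrophage markers lower (105.3 against 49.6). The part of these shifts in the chaperone values was not tested, and in whole-kidney RNA fewer cells of a type and less RNA per cell cannot be told apart.

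Of the 73 chaperones compared, 67 were not past 2-fold between the libraries on a log2(value + 1) scale. Most of all genes compared were not past 2-fold either, so this is no result about the members. A gene was compared when it reached a value of 10 in at least 1 library, which 73 of the 85 members did (67 in both libraries, 4 only in WT+AKI, 2 only in TG+AKI), and it was counted as past 2-fold as a difference of at least 1 in log2(value + 1), a scale that shrinks differences of low genes. Of the 73, 4 were at least 2-fold higher in TG+AKI (*Dnajc12*, *Dnajc6*, *Dnajc13* and *Dnajc28*) against a background of 5.74% among the 10294 genes compared, and 2 were at least 2-fold lower (*Hspb1* and *Bag2*) against a background of 7.12%. As shares of the 73 these are 5.48% and 2.74%. The higher share is near its background and is no result about the members. The median log2 difference of the members was 0.11 and that of all genes compared 0.01, and 65.8% of the members and 66.4% of all genes differed by less than 0.5.

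Directions of small differences depended on how the libraries were scaled. Setting both column totals equal moved the median of all genes to -0.25, and setting the median ratio of well-expressed genes to 1 moved it to -0.13. The split of the 73 members went from 45 higher and 28 lower to 27 higher and 46 lower with equal totals, and to 31 and 42 with a median ratio of 1. The counts past 2-fold then became 2 higher (*Dnajc12* and *Dnajc6*) and 5 lower with equal totals (*Hspb1*, *Bag2*, *Hsp90aa1*, *Hspb6* and *Hspb8*), while those of all genes went from 591 higher and 733 lower to 369 and 1110. Of the 73 members, 18 turned from higher to lower with equal totals. They were *Hspa4*, *Hspa9*, *Stip1*, *Bag1*, *Bag6*, *Tcp1*, *Cct4*, *Cct6a*, *Dnajb1*, *Dnajb2*, *Dnajb6*, *Dnajc1*, *Dnajc2*, *Dnajc4*, *Dnajc14*, *Dnajc18*, *Dnajc21* and *Dnajc25*.

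**Figure D2:**
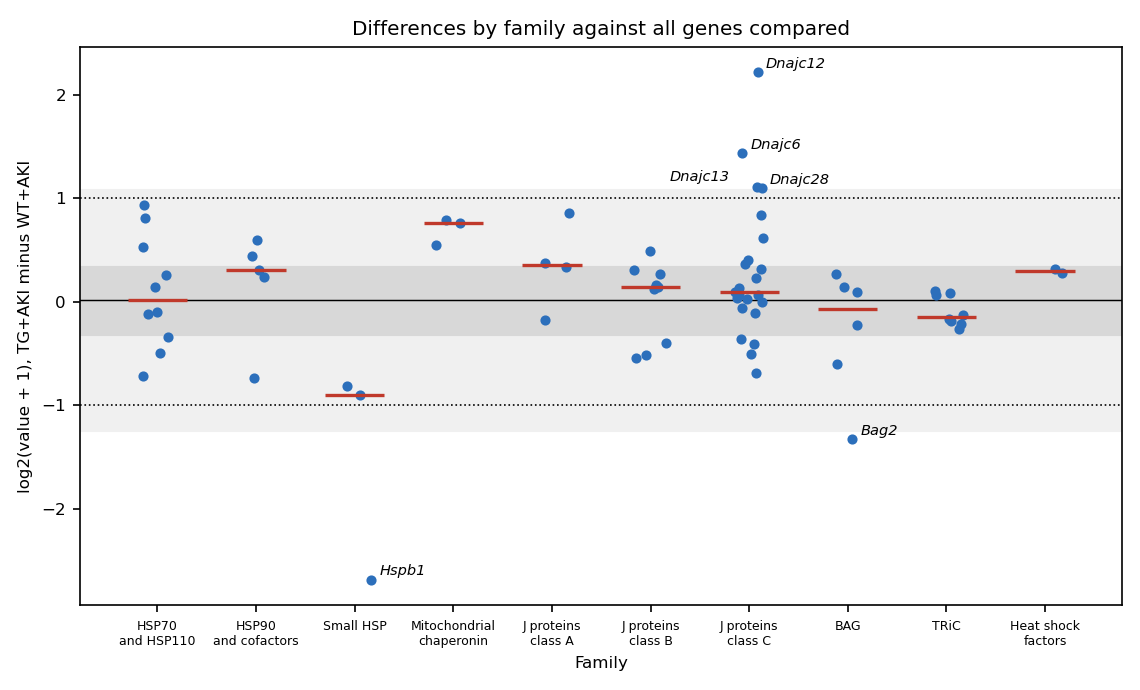
Differences of the 73 members compared, by family. Each point is 1 gene, the vertical axis gives log2(value + 1) in TG+AKI minus WT+AKI, red bars mark family medians, dotted lines mark 2-fold, and the dark and light bands hold the central 50% and 90% of all 10294 genes (-0.32 to 0.34 and -1.25 to 1.08). Small heat shock proteins lie below the dark band, the mitochondrial chaperonin genes above it, and TRiC subunits inside it.

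Of the HSP70 and HSP110 genes, 13 were listed and 10 compared, 5 higher and 5 lower in TG+AKI, with none past 2-fold. *Hspa8* encodes HSC70, the constitutive HSP70 of the cytosol, and was the most abundant member. Its value was 1515 in WT+AKI against 2658 in TG+AKI, a ratio of 1.75 [1.74 to 1.77]. The inducible pair stood the other way. *Hspa1a* had 34.9 in WT+AKI against 24.4 in TG+AKI, a ratio of 0.700 [0.642 to 0.763], and *Hspa1b* had 48.2 and 29.0, a ratio of 0.602 [0.557 to 0.650]. These genes share 48.6% and 49.9% of the 100-base words of their longest transcripts with each other or with *Hspa1l*, so their separate levels are uncertain. *Hspa8* shares 31.6% with other loci and is uncertain in the same way. Within each library, where no scaling enters, *Hspa8* exceeded the sum of *Hspa1a* and *Hspa1b* 16.6-fold per kb of transcript in WT+AKI [16.0 to 17.1] and 45.3-fold in TG+AKI [43.2 to 47.5]. The balance of constitutive over inducible HSP70 transcripts was 2.74 times larger in TG+AKI. The length taken for *Hspa8* does not enter this comparison, but it enters the folds within each library. Per kb of its longest protein-coding transcript *Hspa8* had 632.7 in WT+AKI and 1110 in TG+AKI, against 479.6 and 841.7 with the longest transcript. The folds would then be larger.

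The HSP110 genes act as exchange factors of HSP70. *Hsph1* had 76.7 in WT+AKI against 148.1 in TG+AKI, a ratio of 1.93 [1.85 to 2.02], the value just short of 2-fold on the log2 scale (0.94). The ratio of the pair differed little, since *Hspa8* was 29.8 times *Hsph1* per kb in WT+AKI and 27.1 times in TG+AKI. Both figures depend on the transcript lengths taken. *Hspa4* had 161.9 and 178.4, a ratio between 1.06 and 1.14 whose direction turned with equal totals (-0.13) and with a median ratio of 1, and *Hspa4l* had 59.7 and 55.6. *Hspa9*, the HSP70 of the mitochondrial matrix, had 677.5 and 813.6, a ratio of 1.20 [1.18 to 1.22] that vanished with equal totals (log2 difference -0.011). *Hspa13*, an HSP70 of the ER, had 41.6 and 38.3. *Hspa14*, which works at the ribosome, had 31.1 and 24.3, and shares 13.1% of its words. The remaining family members were *Hspa12a* (25.9 and 37.9), the low *Hspa12b* (7.52 and 5.62) and *Hspa2* (6.04 and 6.58), and *Hspa1l* with 45 and 20 reads. *Hspa1l* and *Hspa2* are best known from the testis, and all 4 male germ cell markers had no row in the table. A missing row does not show absence from both libraries, since the table lists only genes with reads in both.

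The 2 cytosolic HSP90 genes differed in opposite directions as deposited. *Hsp90aa1*, the inducible form, had 615.9 in WT+AKI against 369.3 in TG+AKI, a ratio of 0.600 [0.587 to 0.613]. *Hsp90ab1*, the constitutive form, had 706.6 and 877.2, a ratio of 1.24 [1.22 to 1.26]. Its log2 difference nearly vanished with equal totals (0.037). Per kb, *Hsp90ab1* exceeded *Hsp90aa1* 1.49-fold in WT+AKI [1.47 to 1.52] and 3.09-fold in TG+AKI [3.03 to 3.16], a difference in balance of 2.07 times in which no scaling between libraries enters. *Hsp90aa1* shares 47.5% of its words with predicted loci (*Gm* genes), while *Hsp90ab1* shares 0%, so the level of *Hsp90aa1* is the less certain one. The 3 HSP90 cofactors among the members, *Chordc1*, *Ahsa1* and *Stip1*, had higher values in TG+AKI as deposited. *Chordc1*, whose promoter carries the 5-unit run, had 43.1 and 65.9, a ratio of 1.53 [1.44 to 1.63]. *Ahsa1*, which stimulates the HSP90 ATPase, had 44.6 and 61.1, a ratio of 1.37 [1.28 to 1.46]. *Stip1*, which hands clients from HSP70 to HSP90, had 76.4 and 90.2, a ratio of 1.18 that turned to a log2 difference of -0.034 with equal totals.

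The small heat shock proteins were the family with the lowest median difference. Its 6 listed genes comprised 3 that were compared, all lower, with a median log2 difference of -0.91. All 3 passed the filter through WT+AKI only, so their direction was favoured by the filter. *Hspb1* (chr5:135887919-135889563, build GRCm38) encodes HSP25, the counterpart of human HSP27, which binds unfolded chains and actin. It had 35.9 in WT+AKI (1523 reads) against 4.74 in TG+AKI (157 reads). TG+AKI was thus 7.58-fold lower [6.43 to 8.99], a log2 difference of -2.69. This was the largest log2 difference of any member compared, although with a pseudocount of 10 it was -1.64 and that of *Dnajc12* 1.96. Its rank per kb among the 85 members was 15 in WT+AKI and 66 in TG+AKI. The gene shares 42.7% of its words with the pseudogene *Hsp25-ps1*.

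*Hspb8*, which works with BAG3 in the clearance of misfolded proteins, had 10.5 and 5.16 and was 2.04-fold lower [1.71 to 2.45], although on the log2(value + 1) scale it fell short of 2-fold (-0.91). *Hspb6*, a small heat shock protein of smooth muscle, had 13.8 and 7.43, a ratio of 0.539 [0.463 to 0.627]. The smooth muscle markers *Acta2*, *Cnn1*, *Myh11* and *Tagln* summed to 70.8 in WT+AKI against 71.1 in TG+AKI, with 3 of 4 lower. Of the 3 genes under the filter, *Hspb2* had 3.18 and 1.81, *Hspb11* had 6.72 and 3.80, and *Hspb7*, a gene of striated muscle, had 3.33 and 3.77 with an interval that included 1 [0.885 to 1.45]. Of the 4 skeletal muscle markers 1 had a row, *Mylpf*, at 0.826 and 0.634.

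The mitochondrial chaperonin stood higher in TG+AKI under every scaling tried, with a family median of 0.76 that was 0.48 with equal totals. The median is over 3 genes, of which the pseudogene *Hspd1-ps3* passed the filter through TG+AKI only, and without it the median was 0.66. *Hspd1* (HSP60), the ring, had 377.6 in WT+AKI against 639.6 in TG+AKI, a ratio of 1.69 [1.66 to 1.73]. *Hspe1* (HSP10), its lid, had 69.7 and 102.6, a ratio of 1.47 [1.40 to 1.55]. The annotated genes overlap, and reads in the overlap cannot be told apart without the strand setting. The ratio of *Hspd1* to *Hspe1* per kb was 2.16 in WT+AKI against 2.48 in TG+AKI. Per kb of its longest protein-coding transcript *Hspe1* had 90.0 in WT+AKI and 132.5 in TG+AKI, against 72.3 and 106.4 with the longest transcript. Both ratios would then be smaller. The pseudogene *Hspd1-ps3* had 5.97 and 11.1 and shares 36.9% of its words, mostly with *Hspd1*, which shares 26.9% in turn, so its level is uncertain. *Hspe1-ps6* was covered by 4 and 5 reads.

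Other genes of the mitochondrial chaperone system, none of them members, were *Grpel1*, *Grpel2*, *Hscb*, *Dnlz*, *Trap1*, *Clpb*, *Clpp*, *Clpx*, *Lonp1* and *Timm44*. Of these 10, 9 were higher in TG+AKI, with a median log2 difference of 0.40, and for 3 the interval included 1. With equal totals 6 were higher and 4 lower, with a median of 0.14. *Clpx*, the unfolding subunit of a matrix protease, passed 2-fold with 80.0 and 172.0 [ratio 2.06 to 2.24], but not with equal totals (log2 difference 0.82) or a median ratio of 1 (0.95). Among the J proteins of mitochondria were *Dnaja3* (102.2 and 133.0), *Dnajc19* (41.4 and 74.9, a ratio of 1.81 [1.70 to 1.92]), *Dnajc15* (21.0 and 26.4) and *Dnajc30* (16.3 and 21.8). *Dnajc11*, also of mitochondria, stood the other way with 58.0 and 55.5, a ratio of 0.957 with an interval that included 1 [0.900 to 1.02].

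**Figure D3:**
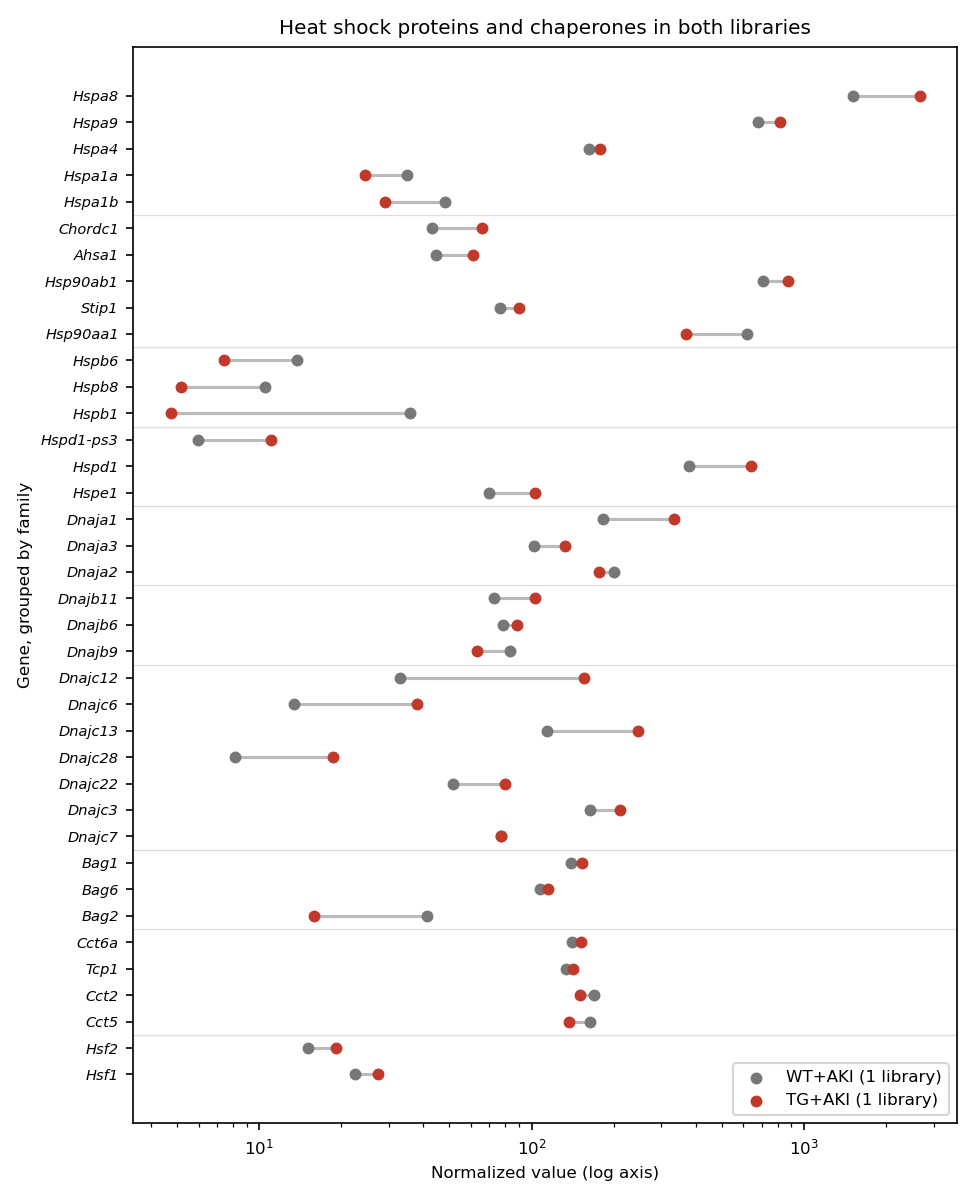
Normalized values of the 38 named members in both libraries, on a log axis, grouped by family. Grey points are WT+AKI and red points TG+AKI, 1 library each, with a line joining the pair. *Dnajc12* and *Hspb1* have the longest lines, in opposite directions, and *Dnajc7* the shortest.

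The J proteins bring clients to HSP70 and start its ATPase. Class A holds the closest relatives of the bacterial protein DnaJ. *Dnaja1* had 183.6 in WT+AKI against 332.9 in TG+AKI, a ratio of 1.81 [1.76 to 1.87], while *Dnaja2* had 200.3 and 177.1, a ratio of 0.884 [0.855 to 0.914]. Per kb of the longest transcript, *Dnaja1* stood at 0.476 of *Dnaja2* in WT+AKI and at 0.976 in TG+AKI. This is a shift of 2.05 times between the main cytosolic partners of HSP70. The shift does not depend on the transcript length, but the order of the 2 genes does. The longest *Dnaja1* transcript has 5622 bases and the median 871. With median lengths *Dnaja1* was among the 10 highest members and *Dnaja2* was not. *Dnaja4* had 20.2 and 25.6. *Dnaja1* shares 14.8% of its words with predicted loci.

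In class B, 9 of 10 genes were compared, 6 higher and 3 lower, with none past 2-fold and a median of 0.14 that turned to -0.13 with equal totals. *Dnajb1*, the classical heat-inducible HSP40, had 30.9 and 33.7, a ratio of 1.09 [1.01 to 1.18] that turned with equal totals (-0.14). *Dnajb4*, its relative, had 53.1 and 36.9, a ratio of 0.695 [0.648 to 0.745], and *Dnajb5* had 10.9 and 7.19. *Dnajb6*, a suppressor of protein aggregation, had 78.8 and 88.5, and its higher value in TG+AKI turned with equal totals (-0.10). It shares 31.0% of its words with predicted loci. The ER members differed from each other: *Dnajb11* (ERdj3) had 73.0 and 103.0, a ratio of 1.41 [1.34 to 1.48], and *Dnajb9* (ERdj4) had 83.4 and 63.1, a ratio of 0.756 [0.716 to 0.799]. *Dnajb12* (56.2 and 68.0), *Dnajb14* (45.7 and 56.6) and *Dnajb2* (40.5 and 44.7) had slightly higher values in TG+AKI, which for *Dnajb2* turned with equal totals, and *Dnajb3* had 26 and 8 reads.

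Class C, in which the J domain is joined to varied other parts, held all 4 members that were at least 2-fold higher in TG+AKI. They are 17.4% of its 23 genes compared, against 5.74% of all genes compared. Class C is also the largest family, and the difference in shares was not tested. *Dnajc12* (chr10:63382443-63408840) encodes a partner of HSP70 in the folding of phenylalanine, tyrosine and tryptophan hydroxylases. It had 32.8 in WT+AKI (1390 reads) against 156.1 in TG+AKI (5171 reads), a ratio of 4.76 [4.49 to 5.06]. Its rank per kb among the members went from 47 to 14. *Dnajc6* (chr4:101496648-101642799) encodes auxilin, which uncoats clathrin vesicles with HSC70, and had 13.4 and 38.1, a ratio of 2.84 [2.57 to 3.14]. *Dnajc13* (chr9:104151597-104263608) encodes RME-8, an endosomal J protein, and had 114.1 and 246.6, a ratio of 2.16 [2.09 to 2.24]. *Dnajc28* (chr16:91614257-91618999) had 8.14 and 18.6, a ratio of 2.29 with an interval from just above 2 to 2.62, and passed the filter through TG+AKI only. With equal totals or a median ratio of 1, *Dnajc13* and *Dnajc28* were no longer past 2-fold.

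Of the 26 class C genes, 23 were compared, 16 higher and 7 lower, and the median of 0.10 turned to -0.16 with equal totals. *Dnajc22* had 51.6 and 79.7, a ratio of 1.54 [1.46 to 1.63]. *Dnajc3*, an ER co-chaperone, had 163.5 and 210.8, a ratio of 1.29 [1.25 to 1.33]. *Dnajc7*, an adaptor between HSP70 and HSP90, had 77.2 and 77.1 and was the member closest to equality as deposited, with an interval of 0.948 to 1.05, while its log2 difference was -0.27 with equal totals and -0.14 with a median ratio of 1. On the lower side, *Dnajc5*, the cysteine string protein of secretory vesicles, had 172.8 and 107.1, a ratio of 0.620 [0.595 to 0.645]. *Dnajc9*, a histone chaperone, had 22.1 and 15.2, and *Dnajc10*, an ER reductase, had 73.9 and 55.6. *Dnajc8*, a splicing factor, had 47.4 and 36.7. For 8 of the 23 the interval included 1, and 3 genes lay under the filter, *Dnajc17*, *Dnajc24* and *Dnajc27*, between 4.29 and 6.75.

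The BAG proteins release clients from HSP70. *Bag2* (chr1:33745484-33757750), which restrains the ubiquitin ligase CHIP, had 41.4 in WT+AKI (1756 reads) against 15.9 in TG+AKI (528 reads) and was 2.60-fold lower in TG+AKI [2.36 to 2.87]. *Bag3*, the stress-inducible partner of HSPB8, had 40.5 and 26.3, a ratio of 0.651 [0.599 to 0.707]. *Bag1*, the most abundant of the family per kb, had 139.1 and 153.6, and *Bag6*, which handles tail-anchored membrane proteins, had 107.3 and 114.9, both higher by a margin that turned with equal totals and with a median ratio of 1. *Bag4* had 36.8 and 44.7, and *Bag5* had 20.2 and 17.1. The ligase gene *Stub1*, which encodes CHIP and is no member, had 49.8 and 48.6 [ratio 0.914 to 1.04].

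The TRiC subunits were the most even of the larger families. Of 9 listed genes 8 were compared, with log2 differences between -0.26 (*Cct5*) and 0.11 (*Cct6a*) and a median of -0.15. *Cct2* had 169.8 in WT+AKI against 151.2 in TG+AKI, a ratio of 0.890 [0.859 to 0.923], and *Cct5* had 164.3 and 137.0, a ratio of 0.834 [0.803 to 0.866]. *Cct3*, *Cct7* and *Cct8* had ratios of 0.859, 0.912 and 0.876. *Tcp1*, the first subunit described, had 133.5 and 141.5, *Cct4* had 112.2 and 117.3, and *Cct6a* had 141.4 and 152.2, and all 3 turned lower with equal totals. *Cct6b*, a variant of the testis, had 36 and 75 reads. The prefoldin and TRiC helper genes *Pfdn1*, *Pfdn2*, *Pfdn4*, *Pfdn5*, *Pfdn6*, *Vbp1*, *Pdcl*, *Pdcl3* and *Txndc9* had 8 of 9 lower (9 with equal totals), none past 2-fold, 6 with an interval that included 1 and a median of -0.10.

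The regulators themselves differed little. *Hsf1*, the master factor of the heat shock response, had 22.4 in WT+AKI against 27.4 in TG+AKI, a ratio of 1.22 [1.12 to 1.34]. *Hsf2* had 15.1 and 19.1, a ratio of 1.26 [1.13 to 1.41]. HSF1 is governed mainly at the level of the protein, which these data do not measure. The genes reported here that are known as targets of heat shock factors but are no members had no common direction as deposited. *Cryab*, a small heat shock protein by structure, had 308.2 and 70.9 and was 4.35-fold lower in TG+AKI [4.16 to 4.55], *Hmox1*, which encodes heme oxygenase, had 169.7 and 43.3 and was 3.92-fold lower [3.71 to 4.15], and *Fkbp4*, an HSP90 cofactor of steroid receptors, had 104.1 and 222.2, a ratio of 2.13 [2.06 to 2.22]. *Serpinh1* and *Ubb* were within 2-fold. *Serpinh1* was lower, with 127.0 and 80.6, a ratio of 0.634 [0.605 to 0.665], and *Ubb* turned lower with equal totals. Of these reported targets, only *Fkbp4* was then higher. Among the 18 other co-chaperones of HSP70 and HSP90 (*Cdc37*, *Cdc37l1*, *Ptges3*, *Fkbp4*, *Fkbp5*, *Fkbp8*, *Ppid*, *Ppp5c*, *Sugt1*, *Unc45a*, *Stub1*, *St13*, *Sgta*, *Hspbp1*, *Hspbap1*, *Hsbp1*, *Ttc4*, *Tomm34*), 9 were higher and 9 lower with a median of 0.0023, and *Fkbp4* alone passed 2-fold (log2 difference 1.09). *Fkbp5* lay just inside it, with 217.1 and 111.8 (-0.95). With equal totals 5 were higher and 13 lower, *Fkbp4* was no longer past 2-fold (0.81) and *Fkbp5* was (-1.22). With a median ratio of 1 these genes stood at 0.94 and -1.10.

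The members with a promoter entry can also be ordered by the promoter letters shown above. *Hspa8*, *Hspa9*, *Hsp90aa1*, *Hsp90ab1* and the other members without an entry are in none of these sets. The 5 genes with runs of 3 or more units all had higher values in TG+AKI, with ratios from 1.12 to 1.93 and a median log2 difference of 0.60, and *Dnajb6* turned with equal totals. Of the 13 genes compared that held runs of 2 units only, 3 were higher (*Dnaja1*, *Dnaja4* and *Cct6a*) and 10 lower (*Bag3*, *Hspa1a*, *Hspa1b*, *Dnajb4*, *Dnajc10*, *Hspb1*, *Hspb6*, *Hspb8*, *Cct2* and *Cct5*), with a median of -0.50. With equal totals *Cct6a* turned as well. *Hspb1*, *Hspb6* and *Hspb8* passed the filter through WT+AKI only, and without them 3 were higher and 7 lower, with a median of -0.33. The 39 compared members with a promoter entry and neither run comprised 25 higher and 14 lower, with a median of 0.10, or 13 and 26 with equal totals. This ordering was made after the values were seen, several of these genes share sequence or a promoter, and the differences between the sets were not tested.

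The ER counterparts that the name rule left out were all higher in TG+AKI, none of them past 2-fold. *Hspa5* (BiP) had 429.5 and 726.7, *Hsp90b1* (GRP94) had 423.7 and 566.6, and *Hyou1*, the HSP110 of the ER, had 109.4 and 173.6, with ratios of 1.69, 1.34 and 1.59.

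Levels of different genes were compared per kb of the longest annotated transcript. The 3 highest members were the same in both libraries, *Hspa8* (479.6 and 841.7 per kb), *Hsp90ab1* (280.4 and 348.1) and *Hspa9* (222.2 and 266.8), and 9 genes were among the 10 highest in both. *Hsp90aa1* had rank 4 in WT+AKI and rank 6 in TG+AKI, and *Hspd1* ranks 5 and 4. *Hspa8* made up 16.4% of the summed level per kb of the 85 members in WT+AKI and 23.7% in TG+AKI. The small heat shock proteins made up 2.09% and 0.506%, the mitochondrial chaperonin 7.92% and 10.6%, and TRiC 15.2% and 11.7%. These shares do not depend on the scaling between libraries, but each depends on the levels of the other members and on the transcript lengths taken. The summed level of TRiC per kb was 445.3 in WT+AKI and 415.2 in TG+AKI as deposited, closer together than its shares.

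**Figure D4:**
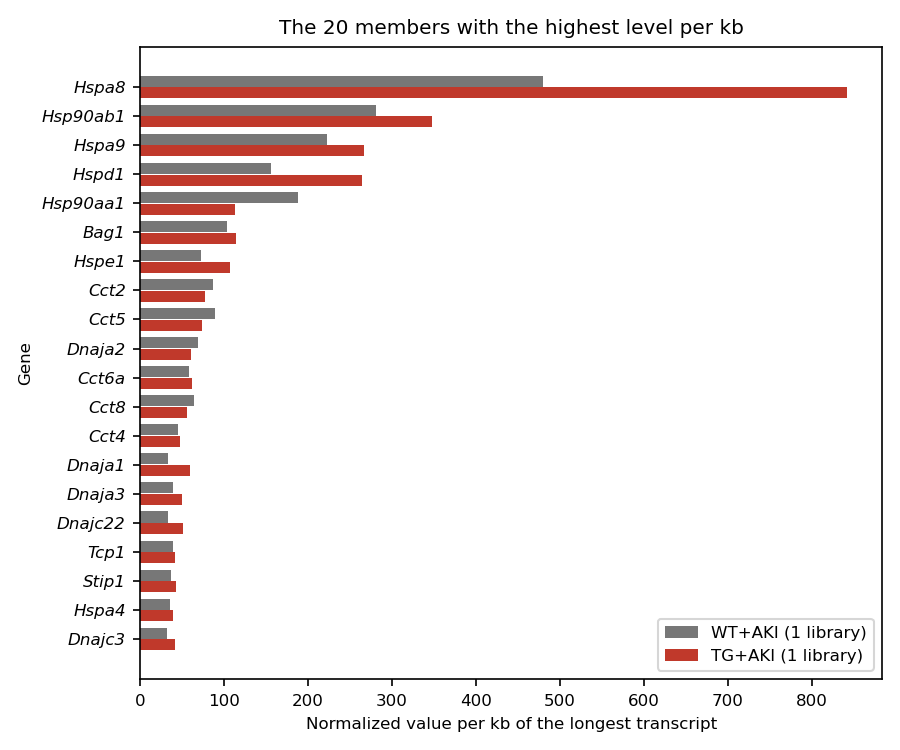
Levels of the 20 members with the highest mean value per kb of the longest transcript. Grey bars are WT+AKI and red bars TG+AKI, 1 library each, on a linear axis from 0. *Hspa8* leads in both libraries, and *Hsp90aa1* is the member of the leading 5 whose bar is longer in WT+AKI.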

How the data were processed

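The authors deposited a normalized signal, 1 value for each gene in each library, derived from gene-level read counts. Per the study's methods and the submitters' processing notes, TruSeq Stranded mRNA libraries were aligned with STAR 2.7.3a to mm10, counted with HTSeq and normalized with DESeq2, and edgeR is also listed. The annotation and the strand setting of the counting are not given in the sources used here, so overlapping genes may share reads. In each column all values (100%) were whole multiples of 1 step, within 0.001 reads, and division by that step gave whole reads. The lowest value in each column stood for 1 read, so a gene without reads in 1 library has no row. One read's worth matched edgeR 4.0.16 TMM scaling (factors 1.10 and 0.909) rather than DESeq2 1.42.0 size factors (1.14 and 0.879), so values are TMM-scaled CPM. The filter of 10 corresponds to 424.0 (WT+AKI) and 331.2 (TG+AKI) reads.

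No test between conditions is possible with 1 library per group. Differences are log2(value + 1). Intervals are 95% Clopper-Pearson intervals of the ratio. Transcript lengths and shared 100-base words (longest transcript, same strand) came from GENCODE M21, and positions and promoters from RefSeq GRCm38.p6, the build of mm10. The longest transcript can be an unspliced form. All 85 members had a length.

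The members and lists were chosen with earlier results of these data known. Named by rule were members past 2-fold, the 3 highest per kb in each family, *Hsf1*, *Hsf2*, *Tcp1*, *Stip1*, *Ahsa1*, *Chordc1*, *Hspa1a*, *Hspa1b* and *Hspb1*, any member at or under 3 reads in a library (there was none), and other pathway genes past 2-fold. One gene of the list of heat shock factor targets is not reported here. Genes named beyond these 38 were chosen after their values were seen. Adrenal cortex markers (1 of 3 listed, 2.15 and 1.45), thick ascending limb (1822 and 2970), collecting duct (169.1 and 192.9) and podocyte markers (82.4 and 100.8) complete the lists examined. Alternatives were pseudocounts, scalings, filters, transcript lengths and leaving out genes that share at least 10% of their words. Python 3.11.15 with pandas 2.3.3, scipy 1.17.1 and matplotlib 3.10.9 was used.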

Additional observations from a re-analysis of the deposited data

How the results depend on the processing

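No replicate was left out, since each group has 1. No paired analysis was possible because each group has 1 sample. No member past 2-fold changed sign under any alternative run. None of these runs shifted values enough to turn such a member, so this is no check of them.

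With a pseudocount of 10, 372 of all genes were higher and 408 lower, 1 member was lower (*Hspb1*), and the medians were -0.45 for small heat shock proteins, 0.50 for the mitochondrial chaperonin and 0.30 for J proteins of class A. With equal column totals, 369 and 1110 of all genes and 2 and 5 members were higher and lower. The median of the members was then -0.16, that of HSP70 and HSP110 -0.25, HSP90 and cofactors 0.037, mitochondrial chaperonin 0.48, J proteins of class A 0.086, B -0.13 and C -0.16, BAG -0.33, TRiC -0.42 and heat shock factors 0.037. With a median ratio of 1, 2 members were higher, and the medians were -0.037 for the members, -0.12 for HSP70 and HSP110, 0.17 for HSP90 and cofactors, 0.61 for the mitochondrial chaperonin, 0.21, -0.0024 and -0.037 for J proteins of class A, B and C, -0.21 for BAG and -0.29 for TRiC. These shifts follow from 1 factor applied to all genes. Relative to the median of all genes, that of the members was 0.092 higher as deposited and 0.094 and 0.089 higher under these scalings.

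Without a filter, 1150 of all genes were lower, and the medians were -0.10 for HSP70 and HSP110 and 0.66 for the mitochondrial chaperonin. With a filter of 50, 374 and 295 of all genes and 2 and 0 members were higher and lower, and the medians were 0.26 for HSP70 and HSP110, 0.66 for the mitochondrial chaperonin, 0.22 for J proteins of class C and 0.12 for BAG. No small heat shock protein and no heat shock factor reached 50. With a filter on the mean of both libraries the medians were -1.75 for small heat shock proteins and 0.66 for the mitochondrial chaperonin. Fewer genes enter each median under these filters. Without the 10 members that share sequence, 1 member was lower (*Bag2*), and the medians were 0.20 for HSP70 and HSP110 and 0.55 for the mitochondrial chaperonin. Of the chaperonin only *Hspe1* was then left, so 0.55 is the value of that gene alone. Of the 10 highest members per kb, 6 stayed with the median transcript length and 10 with the longest protein-coding transcript, an alternative chosen after the data were seen. Chosen likewise, a filter passed in both libraries gave the mitochondrial chaperonin a median of 0.66. DESeq2 size factors kept the same calls of members, and a pseudocount of 0.1 added *Hspb8* to those lower. With DESeq2 size factors the near-equal *Dnajc7* turned to 0.014. Depth limits *Dnajb3*, *Hspa1l* and *Hspe1-ps6*, with 45 reads or fewer in each library.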
